A study of Mus musculus with 87 samples.

Results

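Each neuron makes, packs and takes back one or a few transmitters, and the genes for these steps mark its type. The 10 genes examined here, Gad1, Gad2, Slc32a1, Slc17a6, Slc6a5, Th, Chat, Slc18a3, Tph2 and Slc6a4, were chosen by name as markers of GABAergic, glycinergic, glutamatergic, catecholaminergic, cholinergic and serotonergic neurons. All 10 were found by Ensembl identifier among the 43346 Ensembl genes of the expression tables, and all were followed in 64 libraries. The libraries came from mouse embryos at embryonic day 11.5 (E11.5) of 7 FVB lines, B2 to B8, in each of which CRISPR/Cas9 had removed a different boundary between topologically associating domains. Homozygous embryos were set against littermate wild-type embryos, and the question posed here is where these genes were expressed and whether a deletion changed them.

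From B2 came 8 hearts, of which 4 were homozygous, and 12 lungs, of which 6 were homozygous, the rest being wild-type. The other comparisons had 2 homozygous and 2 wild-type samples each: face and heart of B3 and B5, gut and midbrain of B4, face of B6 and B7, and forebrain and neural tube of B8. B6 and B7 also gave 2 homozygous hearts each, for which levels alone are used. Each line carries 1 deletion, which its wild-type littermates lack. Whether different tissues were cut from the same embryos is not stated. The p-values measure the spread between these samples.

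At midgestation the first neurons of the brain and spinal cord leave the cell cycle, and their transmitter is set by transcription factors laid down along the axes of the neural tube. Spinal and hindbrain motor neurons use acetylcholine. Sympathetic and enteric precursors, which come from the neural crest, start to make noradrenaline. Serotonin neurons arise in the anterior hindbrain, next to the midbrain.

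Levels are given as CPM, a gene's count scaled to a library total that TMM factors make comparable across the 64 libraries, and as TPM where genes are compared with each other, since TPM allows for gene length. The total count of a library was 8391553 to 31793440. Markers of other tissues were seen in several libraries. Heart A21, labelled B5 homozygous, held face markers at 373 CPM and neuron markers at 899 CPM, against at most 133 and 165 CPM in the other 19 hearts, beside cardiomyocyte genes at 9030 CPM. Midbrain A39, labelled B4 homozygous, held 422 CPM of forebrain markers against 112 to 135 CPM in the other 3 midbrains. The guts held 4748 to 7668 CPM of liver markers and the neural tubes 273 to 332 CPM of cardiomyocyte genes. Liver markers reached 1253 CPM in 1 homozygous B2 heart (median 18.02 CPM over 20 hearts). Wild-type hearts of B3 and B5 reached 164 and 177 CPM of gut markers (median 18.95 CPM) and 328 and 342 CPM of lung markers (median 176 CPM). The lungs stood apart from the other tissues: mitochondrial genes held 11.3% to 14.05% of counts in 10 of 12, against 1.72% to 3.65% in hearts and at most 1.62% in all other tissues. In the wild-type B2 lungs E5420_07 and E5420_09 they held 0.36% and 1.54%, and the 10 most abundant genes took 90.1% of E5420_09. No count of members called in the comparisons that use the lungs moved without this pair. In bulk tissue, fewer cells of a type and less RNA per cell cannot be told apart.

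The members lie on mm10 at chr2:70553072-70602014 (Gad1, plus strand), chr2:22622205-22693874 (Gad2, plus), chr2:158610767-158615748 (Slc32a1, plus), chr7:51622006-51671119 (Slc17a6, plus) and chr7:49910146-49963856 (Slc6a5, plus). Th is at chr7:142892752-142931128 (minus), Chat at chr14:32408203-32465989 (minus), Slc18a3 at chr14:32462438-32464850 (minus), Tph2 at chr10:115078641-115185022 (minus) and Slc6a4 at chr11:76998603-77032340 (plus). Slc18a3 is a single exon that lies inside the Chat gene on the same strand and shares 0 exonic bases with it. Slc32a1 shares 697 exonic bases with the antisense transcript Gm14205. No strand setting is stated for the counting, so reads of the sense and antisense transcript cannot be told apart there.

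The promoter windows of 6 members are printed because their genes moved together between regions (Gad1, Gad2, Slc32a1), share a locus (Chat, Slc18a3) or gave the largest fold among the genotype comparisons in gut (Th). Each window runs from 250 bases before to 50 after the RefSeq start (GRCm38.p6), 5′ to 3′ on the gene's strand, with every E-box (CANNTG) and cyclic AMP response element (TGACGTCA) in capitals. Both motifs read the same on either strand, and the windows printed hold no overlap between them. CANNTG was in at least 1 window of each of the 10 members and in 72.3% of 32851 windows of the same length. TGACGTCA was in the Th window and in 1.8% of all windows. Of 3 further motifs searched on both strands, CAGCTG (a form of CANNTG) was in windows of Tph2, Slc6a4 and Chat and in 16.3% of all, TAATTA in 1 of Slc17a6 and in 5.3%, and TATAAA in those of Gad1 and Tph2 and in 13.6%. A match is a description of the letters and shows no binding.
Gad1, chr2:70561879-70562178 (plus): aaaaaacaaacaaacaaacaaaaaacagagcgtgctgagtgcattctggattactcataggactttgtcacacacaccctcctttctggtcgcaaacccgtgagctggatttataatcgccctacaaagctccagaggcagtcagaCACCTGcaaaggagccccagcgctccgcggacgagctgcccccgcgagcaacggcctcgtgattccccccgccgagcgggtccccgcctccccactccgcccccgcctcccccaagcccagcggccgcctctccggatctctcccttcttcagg
Gad2, chr2:22622077-22622376 (plus): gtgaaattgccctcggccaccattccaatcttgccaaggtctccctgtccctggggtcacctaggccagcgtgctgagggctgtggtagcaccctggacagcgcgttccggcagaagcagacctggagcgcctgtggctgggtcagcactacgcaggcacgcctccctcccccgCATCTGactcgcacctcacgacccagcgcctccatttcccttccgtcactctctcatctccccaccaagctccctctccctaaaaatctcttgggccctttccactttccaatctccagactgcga
Slc32a1, chr2:158610508-158610807 (plus): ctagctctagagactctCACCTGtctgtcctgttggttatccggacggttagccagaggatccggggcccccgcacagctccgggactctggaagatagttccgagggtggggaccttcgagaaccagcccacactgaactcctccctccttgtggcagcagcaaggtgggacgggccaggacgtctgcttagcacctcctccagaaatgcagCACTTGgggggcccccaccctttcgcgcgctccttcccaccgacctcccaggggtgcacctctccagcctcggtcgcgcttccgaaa
Th, chr7:142899946-142900245 (minus): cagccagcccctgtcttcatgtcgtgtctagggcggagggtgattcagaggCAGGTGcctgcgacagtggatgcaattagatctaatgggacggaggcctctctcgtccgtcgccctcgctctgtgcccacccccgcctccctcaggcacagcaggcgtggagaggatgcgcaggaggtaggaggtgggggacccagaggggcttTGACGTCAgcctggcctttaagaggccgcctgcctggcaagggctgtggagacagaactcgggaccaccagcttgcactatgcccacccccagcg
Chat, chr14:32465860-32466159 (minus): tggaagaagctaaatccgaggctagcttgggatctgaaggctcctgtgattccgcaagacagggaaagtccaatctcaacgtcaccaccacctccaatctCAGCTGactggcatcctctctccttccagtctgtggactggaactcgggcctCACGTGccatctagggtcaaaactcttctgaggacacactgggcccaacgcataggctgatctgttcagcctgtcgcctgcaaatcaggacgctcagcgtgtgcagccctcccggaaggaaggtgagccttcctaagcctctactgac
Slc18a3, chr14:32464801-32465100 (minus): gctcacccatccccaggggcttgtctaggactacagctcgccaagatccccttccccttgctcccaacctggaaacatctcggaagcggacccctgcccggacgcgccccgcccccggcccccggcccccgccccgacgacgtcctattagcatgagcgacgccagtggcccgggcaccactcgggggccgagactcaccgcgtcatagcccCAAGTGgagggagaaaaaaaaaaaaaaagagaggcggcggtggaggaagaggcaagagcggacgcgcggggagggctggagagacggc

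The GABA and glutamate genes were highest in midbrain and forebrain, the cholinergic and glycine transporter genes in neural tube, and Tph2 in midbrain. Th was spread over the nervous system, and Slc6a4 was highest outside it. Th and Slc6a4 had counts in 64 of 64 libraries, Gad1 in 63, Gad2 in 55, Slc18a3 in 51, Tph2 in 42, Slc17a6 in 39, Slc32a1 in 38, Chat in 29 and Slc6a5 in 26. By TPM, which sets genes side by side, Slc17a6 led in midbrain (23.2 ± 5.07 TPM, SD, n = 4), forebrain (11.3 ± 3.67 TPM, SD, n = 4) and face (3.63 ± 1.03 TPM, SD, n = 16). Slc18a3 led in neural tube, at 8.94 ± 1.72 TPM (SD, n = 4).

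**Figure D1:**
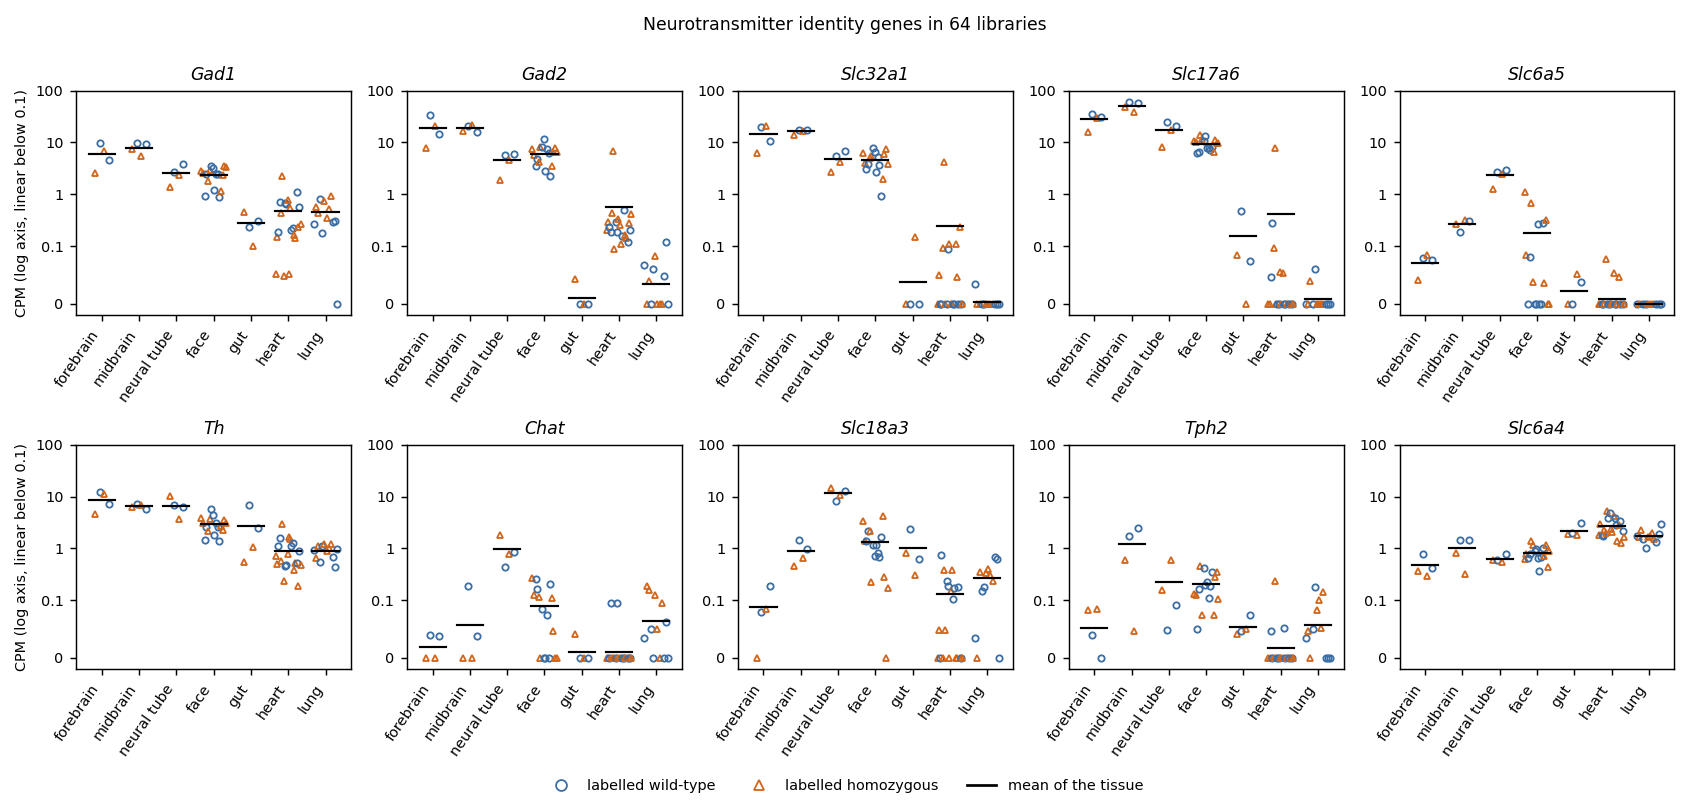
CPM of each member in the 64 libraries by tissue, on a log axis that is linear below 0.1, with homozygous libraries as triangles, wild-type libraries as circles and the tissue mean as a bar. The single heart triangle high in Gad2, Slc32a1 and Slc17a6 (6.83, 4.25 and 7.80 CPM) is A21.

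Gad1 and Gad2 encode the glutamate decarboxylases that make GABA, and Slc32a1 the transporter that loads GABA and glycine into vesicles. Gad1 was at 9.73 and 9.16 CPM in the wild-type and 7.37 and 5.52 CPM in the homozygous midbrains. In forebrain it was at 9.71 and 4.49 CPM in the wild-type and 6.96 and 2.53 CPM in the homozygous libraries. In neural tube it was at 2.71 and 3.78 CPM (wild-type) and 1.41 and 2.39 CPM (homozygous). Midbrain lay above neural tube without overlap, and forebrain overlapped both.

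Gad2 was at 20.4 and 16.3 CPM in wild-type and 16.7 and 22.1 CPM in homozygous midbrain. It ranged more widely in forebrain, from 7.96 CPM in A29 through 14.4 and 20.8 to 34.1 CPM in A30. Neural tube held 1.85 to 5.92 CPM. Slc32a1 was also lowest in neural tube of the 3, with 13.7 to 17.8 CPM in midbrain, 6.34 to 20.7 CPM in forebrain and 2.69 to 6.78 CPM in neural tube. In A29 the neuron markers summed to 912 CPM, against 1656 to 2115 CPM in the other forebrains. The part of the neuron content in these differences was not tested.

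Differences were tested over all genes with edgeR's quasi-likelihood test and a gene was called where its p, after Benjamini-Hochberg adjustment, was under 0.05. All 3 GABA genes were higher in forebrain than in neural tube of B8. The log2 fold changes were 1.21 ± 0.36 for Gad1 (SE, adjusted p = 0.0238), 2.09 ± 0.38 for Gad2 (adjusted p = 0.0019) and 1.61 ± 0.37 for Slc32a1 (adjusted p = 0.00652). In that comparison 6 of 9 members tested were called, where 36.2% of all genes tested were called. The Gad1 call was lost without A31, A30, A33 or A34 (log2 fold changes 0.87, 0.97, 1.06 and 1.14). With homozygous samples alone the Gad1 and Slc32a1 calls were lost (1.31 and 1.97, adjusted p = 0.183 and 0.0592), and with wild-type samples alone that of Gad1 (1.11).

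Midbrain of B4 exceeded neural tube of B8 in the same 3 genes, by 1.62 ± 0.21 (Gad1), 2.07 ± 0.28 (Gad2) and 1.79 ± 0.18 (Slc32a1) on the log2 scale, with adjusted p of 0.000198, 0.000315 and 5.1e-05. Here 7 of 10 members were called, against 43.9% of all genes, and line and tissue cannot be told apart. Forebrain and midbrain did not differ detectably in the 3 genes. The intervals of the log2 differences were -1.14 to 0.30 for Gad1, -0.80 to 0.79 for Gad2 and -0.93 to 0.54 for Slc32a1. In that comparison 3 of 8 members were called, against 22.6% of all genes.

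**Figure D2:**
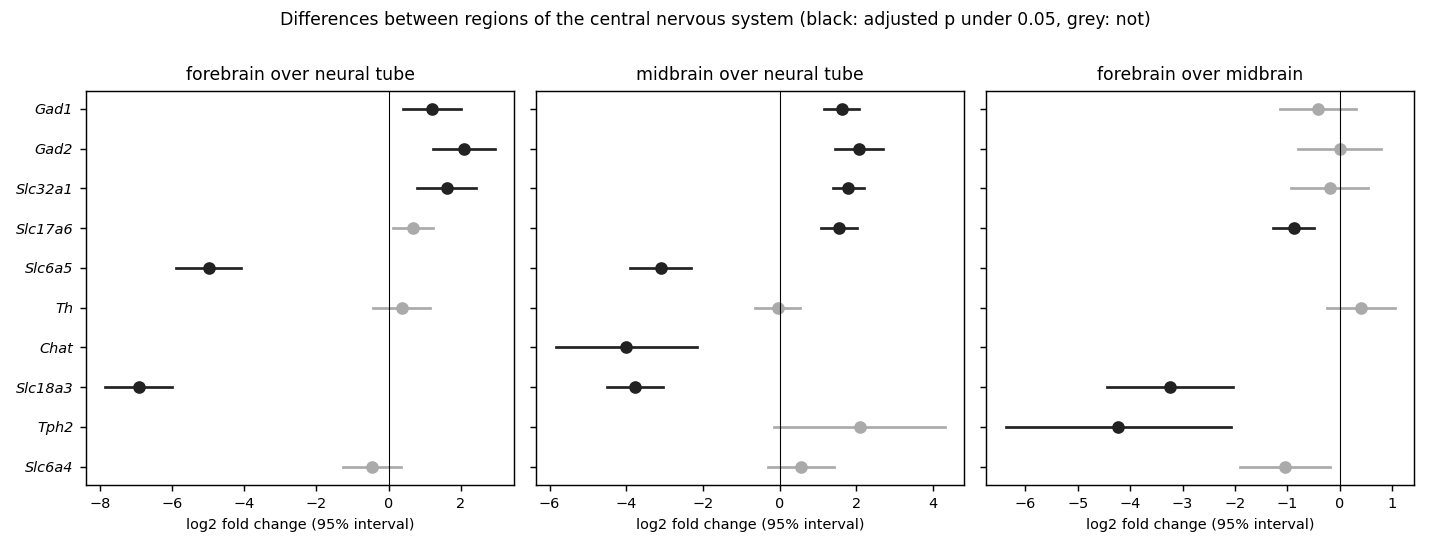
Log2 fold changes of the members between forebrain, midbrain and neural tube with 95% intervals, black where the adjusted p was under 0.05 and grey where not. Chat is left out of the forebrain panels because 2 counts in all were found in forebrain, and members that failed the filter on low counts have no point.

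The regulators of GABAergic and glycinergic identity split by region. Of the 17 listed, all tested, 8 were higher and 7 lower in forebrain than in neural tube. The distal-less factors Dlx6 and Dlx1, which drive forebrain GABA neurons, were higher by 5.39 and 4.84 on the log2 scale, while Lbx1 and Ptf1a, which act in dorsal spinal cord, were lower, with 1 and 2 counts in forebrain against 936 and 167 in neural tube. The median of the list was 0.65, against 0.01 over all genes tested. Against neural tube, midbrain had 10 of 17 higher and 4 lower, led by Tal2 (8.03), a factor of midbrain GABA neurons. Of the 8 GABA and glycine partners, 4 were higher and 2 lower both in forebrain and in midbrain than in neural tube, with medians of 0.25 and 0.16.

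Slc6a5 encodes the plasma membrane transporter that recaptures glycine at glycinergic terminals. It was at 2.76 and 3.00 CPM in wild-type and 1.29 and 2.49 CPM in homozygous neural tube. Forebrain held 7 counts in 4 libraries (0.04 to 0.08 CPM) and midbrain 25 counts (0.19 to 0.32 CPM), so neural tube stood above both without overlap. The log2 fold change was -4.99 ± 0.40 for forebrain over neural tube (adjusted p = 8.69e-06) and -3.10 ± 0.36 for midbrain over neural tube (adjusted p = 0.000103). The 20 hearts held 4 counts of Slc6a5 and the 12 lungs none, which allows up to 3 counts in all (counting error only). Glra1, a glycine receptor subunit, was also lower in both, with 0 counts in forebrain, 3 in midbrain and 155 in neural tube.

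Slc17a6 loads glutamate into the vesicles of most brainstem, spinal and thalamic excitatory neurons. It was at 59.9 and 58.5 CPM in wild-type and 48.8 and 38.4 CPM in homozygous midbrain, above all other libraries. Forebrain held 35.7 and 30.5 CPM (wild-type) and 29.6 and 15.96 CPM (homozygous), and neural tube 24.4 and 20.8 CPM (wild-type) and 17.6 and 8.04 CPM (homozygous). Midbrain exceeded neural tube by 1.54 ± 0.21 on the log2 scale (adjusted p = 0.000279), and forebrain was below midbrain by -0.88 ± 0.17 (adjusted p = 0.00706). Forebrain over neural tube, at 0.68 ± 0.24, missed the threshold (adjusted p = 0.0533). The homozygous libraries were lower than the wild-type libraries in each of these 3 tissues, which come from lines B4 and B8. How many of all genes stood apart in this way was not examined. The lowest values were those of A39 in midbrain, A29 in forebrain and A33 in neural tube. A39 held the most forebrain markers of the midbrains, and A29 and A33 the lowest neuron marker sums of their tissues. The part of these contents was not tested. None of the differences within a tissue was called, as described below.

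Of 14 regulators of glutamatergic identity, 7 were higher and 4 lower in forebrain than in neural tube. The list's median was 0.72. The cortical factor Tbr1 was higher by 9.71 and Eomes, which precedes it, had 8577 counts in forebrain and 2 in neural tube, and Tlx3 and Atoh1, of dorsal spinal cord and hindbrain, were lower (-6.71 and -6.23). Among 8 glutamate partners Slc17a7, another vesicular glutamate transporter, was higher in forebrain (0.85 over neural tube, 2.47 over midbrain) and Slc17a8, a further member of that family, was higher in midbrain than in neural tube (5.36).

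Chat makes acetylcholine and Slc18a3 loads it into vesicles. Slc18a3 was at 8.26 and 12.6 CPM in wild-type and 15.0 and 10.6 CPM in homozygous neural tube. The 4 midbrains held 0.45 to 1.46 CPM and the 4 forebrains 0 to 0.19 CPM, all below neural tube. The log2 fold change was -6.93 ± 0.42 for forebrain over neural tube (adjusted p = 1.19e-06), -3.77 ± 0.33 for midbrain over neural tube (adjusted p = 1.78e-05) and -3.24 ± 0.53 for forebrain over midbrain (adjusted p = 0.00336). Chat had the same order at lower values. It had 9 and 19 counts in the wild-type and 45 and 16 in the homozygous neural tubes, and 2 counts in 4 forebrains. Midbrain, with 5 counts, was below neural tube by -4.00 ± 0.82 on the log2 scale (adjusted p = 0.00342).

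Per length, Slc18a3 stood at 8.94 TPM in neural tube and Chat at 0.63 TPM. Of 9 regulators of motor neuron identity, 8 were lower and 1 was higher in forebrain than in neural tube, with a median of -5.43 against 0.01 over all genes tested. The lower ones included Lhx4 (-7.61), Lhx3 (-7.08) and Mnx1, with 0 counts in forebrain and 527 in neural tube. In midbrain 7 were lower and 1, Olig2, was higher (3.64). Of 6 cholinergic partners 5 were lower in forebrain (median -1.43), among them the acetylcholine hydrolysing enzyme Ache (-1.87) and the choline transporter Slc5a7 (-1.58). Hox markers of spinal cord and hindbrain summed to 359 to 413 CPM in neural tube and to at most 0.28 CPM in forebrain and midbrain.

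Th, tyrosine hydroxylase, makes the first and rate-limiting step of dopamine and noradrenaline synthesis. It was at 12.3 and 7.06 CPM (wild-type) and 11.2 and 4.52 CPM (homozygous) in forebrain, at 7.33 and 5.73 CPM (wild-type) and 6.37 and 7.04 CPM (homozygous) in midbrain, and at 6.89 and 6.19 CPM (wild-type) and 10.1 and 3.66 CPM (homozygous) in neural tube. The 3 tissues overlapped and none of the 3 differences was called. The intervals of the log2 differences were -0.42 to 1.15 for forebrain over neural tube, -0.24 to 1.05 for forebrain over midbrain and -0.65 to 0.54 for midbrain over neural tube.

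Companion genes of the catecholamine pathway were not spread in the same way. Dbh, which converts dopamine to noradrenaline, was lower in forebrain (-5.89) and midbrain (-3.57) than in neural tube, where it was at 7.51 to 11.1 CPM. Of 14 catecholamine partners, 12 were tested in forebrain against neural tube, with 2 higher and 6 lower (median -0.42). Ddc, the decarboxylase shared by dopamine and serotonin synthesis, was lower in forebrain than in midbrain (-2.22). Of 14 regulators of catecholamine and serotonin identity, all 12 tested were lower in forebrain than in midbrain, with a median of -2.98 against 0.02 over all genes tested. They included En2 (-10.87), a factor of the midbrain and isthmus, and Foxa2, a floor plate factor with 2 counts in forebrain and 1882 in midbrain. Markers of sympathetic, enteric and neural crest cells, which lie beside the neural tube, were lower in forebrain than in neural tube in 8 of 8 genes, and sensory neuron markers in 5 of 5. Their part in the neural tube values was not tested. Among 33 receptors of these transmitters, 16 of 27 tested were lower and 1 higher in forebrain than in midbrain, while neuron markers were lower in 12 of 13.

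Tph2 makes the first step of serotonin synthesis in neurons, and Slc6a4 takes serotonin back up. In midbrain Tph2 was at 1.74 and 2.52 CPM in the wild-type and 0.59 and 0.05 CPM in the homozygous libraries, from 37, 66, 13 and 1 counts. Forebrain held 5 counts in all, and midbrain was higher (forebrain over midbrain -4.23 ± 0.95, adjusted p = 0.0134). Without A30 or A32 this call was lost, at log2 fold changes of -3.73 and -3.41. Neural tube held 0.05 to 0.59 CPM of Tph2, which overlaps midbrain. Midbrain over neural tube was not called (2.08 ± 0.99, interval -0.14 to 4.30, edgeR adjusted p = 0.117). Fev, a transcription factor of serotonin neurons, was lower in forebrain than in midbrain too (-3.89). Slc6a4 was at 1.46 and 1.45 CPM in wild-type and 0.82 and 0.32 CPM in homozygous midbrain. In forebrain it was at 0.30 to 0.79 CPM and its difference from midbrain was not called (-1.05 ± 0.38, adjusted p = 0.079).

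Outside the brain and spinal cord the order changed. The 16 faces carried GABA and glutamate genes in every library. Gad2 was at 2.22 to 11.9 CPM (median 6.39), Slc32a1 at 0.94 to 7.71 CPM (median 4.55), Slc17a6 at 6.196 to 14.1 CPM (median 9.87) and Gad1 at 0.90 to 3.57 CPM (median 2.45). In the same faces forebrain markers summed to 72.7 to 188 CPM and neuron markers to 1017 to 1852 CPM. Face B6 A28 had the lowest Gad1, Gad2 and Slc32a1 values of the 16, as well as 73 CPM of forebrain markers. The part of dissected brain in the face values was not tested.

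In lines B3 and B5, where both tissues were sampled, 7 of 7 members tested differed between face and heart, against 71.8% of all genes. Face was higher in Gad1 (2.26 ± 0.54 on the log2 scale), Gad2 (3.33 ± 0.70), Slc32a1 (4.07 ± 0.91), Slc17a6 (4.28 ± 0.95), Th (1.65 ± 0.44) and Slc18a3 (2.47 ± 0.69), with adjusted p between 0.000605 and 0.00494. Slc6a4 was lower in face (-1.64 ± 0.21, adjusted p = 8.28e-06). Heart A21 lowered these differences: without it 7 members were again called, with Gad1 at 2.97, Gad2 at 4.85, Slc32a1 at 7.49 and Slc17a6 at 7.47. With homozygous libraries alone, of which A21 is one, 1 member was called.

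In the 19 hearts other than A21, Slc17a6 had 11 counts in all, Slc32a1 15, Chat 4, Tph2 2 and Slc6a5 2. A21 alone had 202 counts of Slc17a6, 110 of Slc32a1, 177 of Gad2 and 58 of Gad1. These 4 genes were at levels in A21 within the range of the faces, and the sample's face and neuron markers moved with them.

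Slc6a4 was present in every heart. The 20 hearts held 1.27 to 5.22 CPM (median 2.31), the 4 guts 1.83 to 3.14 CPM, the 12 lungs 1.01 to 2.91 CPM and the 16 faces 0.37 to 1.41 CPM. The highest lung value came from 3 counts in E5420_09, and the next was 2.28 CPM from 58 counts in E5406_01. Lung was below heart in B2 by -0.73 ± 0.19 on the log2 scale (adjusted p = 0.00178), the single member called of 3 tested, where 80.4% of all genes were called. With homozygous samples alone it was at -0.52 and not called (adjusted p = 0.0875). The mitochondrial share differed between these lungs and hearts as given above, and its part in the difference was not tested. Midbrain was below gut by -1.26 ± 0.34 (adjusted p = 0.00864), and with wild-type samples alone by -0.83, not called (adjusted p = 0.119). Neighbouring tissues in the order heart, gut, lung, midbrain, face, neural tube, forebrain overlapped. By TPM the mean of gut exceeded that of heart, at 1.49 against 1.15 TPM, so the order of these 2 tissues depends on the unit. Platelets store serotonin taken up by this transporter, and platelet markers summed to 205 to 310 CPM in gut, 31.9 to 133 CPM in heart, 20.8 to 48.5 CPM in lung and at most 20.96 CPM elsewhere. Their part in the Slc6a4 values was not tested.

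Gut and midbrain of B4 differed in 7 of 8 members tested, against 66.6% of all genes. Gut held 1 count of Gad2 and 3 of Slc32a1 in 4 libraries, against 1707 and 1499 in midbrain. Slc17a6, with 14 counts in gut, was higher in midbrain by 8.33 ± 0.34, Gad1 by 4.74 ± 0.33, Tph2 by 4.21 ± 0.78 and Th by 1.58 ± 0.53 on the log2 scale (adjusted p at most 0.0251). The Th call was lost without A41, A43 or A44, at log2 fold changes of 1.14, 1.34 and 1.46, and with wild-type samples alone, at 0.51. Slc18a3 did not differ detectably (-0.23, interval -1.31 to 0.85).

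Gut of B4 exceeded lung of B2 in 2 of 4 members, against 53.4% of all genes. The log2 fold changes were 1.401 ± 0.47 for Th (adjusted p = 0.0183) and 1.67 ± 0.57 for Slc18a3 (adjusted p = 0.0205). Both rested on the wild-type gut A42: without it neither was called (0.54 and 0.98), and with homozygous libraries alone Th was at -0.39. The Slc18a3 call was also lost without A41 (1.64), and without the lung E5420_06 1 of the 2 members was called.

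In none of the 12 comparisons of homozygous with wild-type tissue was a member called. Of 64 tests, 14 had an unadjusted p under 0.05, and the lowest adjusted p was 0.176. Among all genes in the 12 comparisons, 6.41% had an unadjusted p under 0.05. With DESeq2 2 of the 64 were called, Th in B4 gut and Slc18a3 in B7 face. Estimates were positive in 32 tests and negative in 32. The shares of all genes called were 0% in B2 heart, B2 lung, B3 heart, B4 gut, B5 face, B5 heart and B8 forebrain, 0.0131% in B3 face, 0.00677% in B4 midbrain, 0.0723% in B6 face, 0.0329% in B7 face and 0.0132% in B8 neural tube. With 2 samples per group, a change of moderate size could go uncalled.

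**Figure D3:**
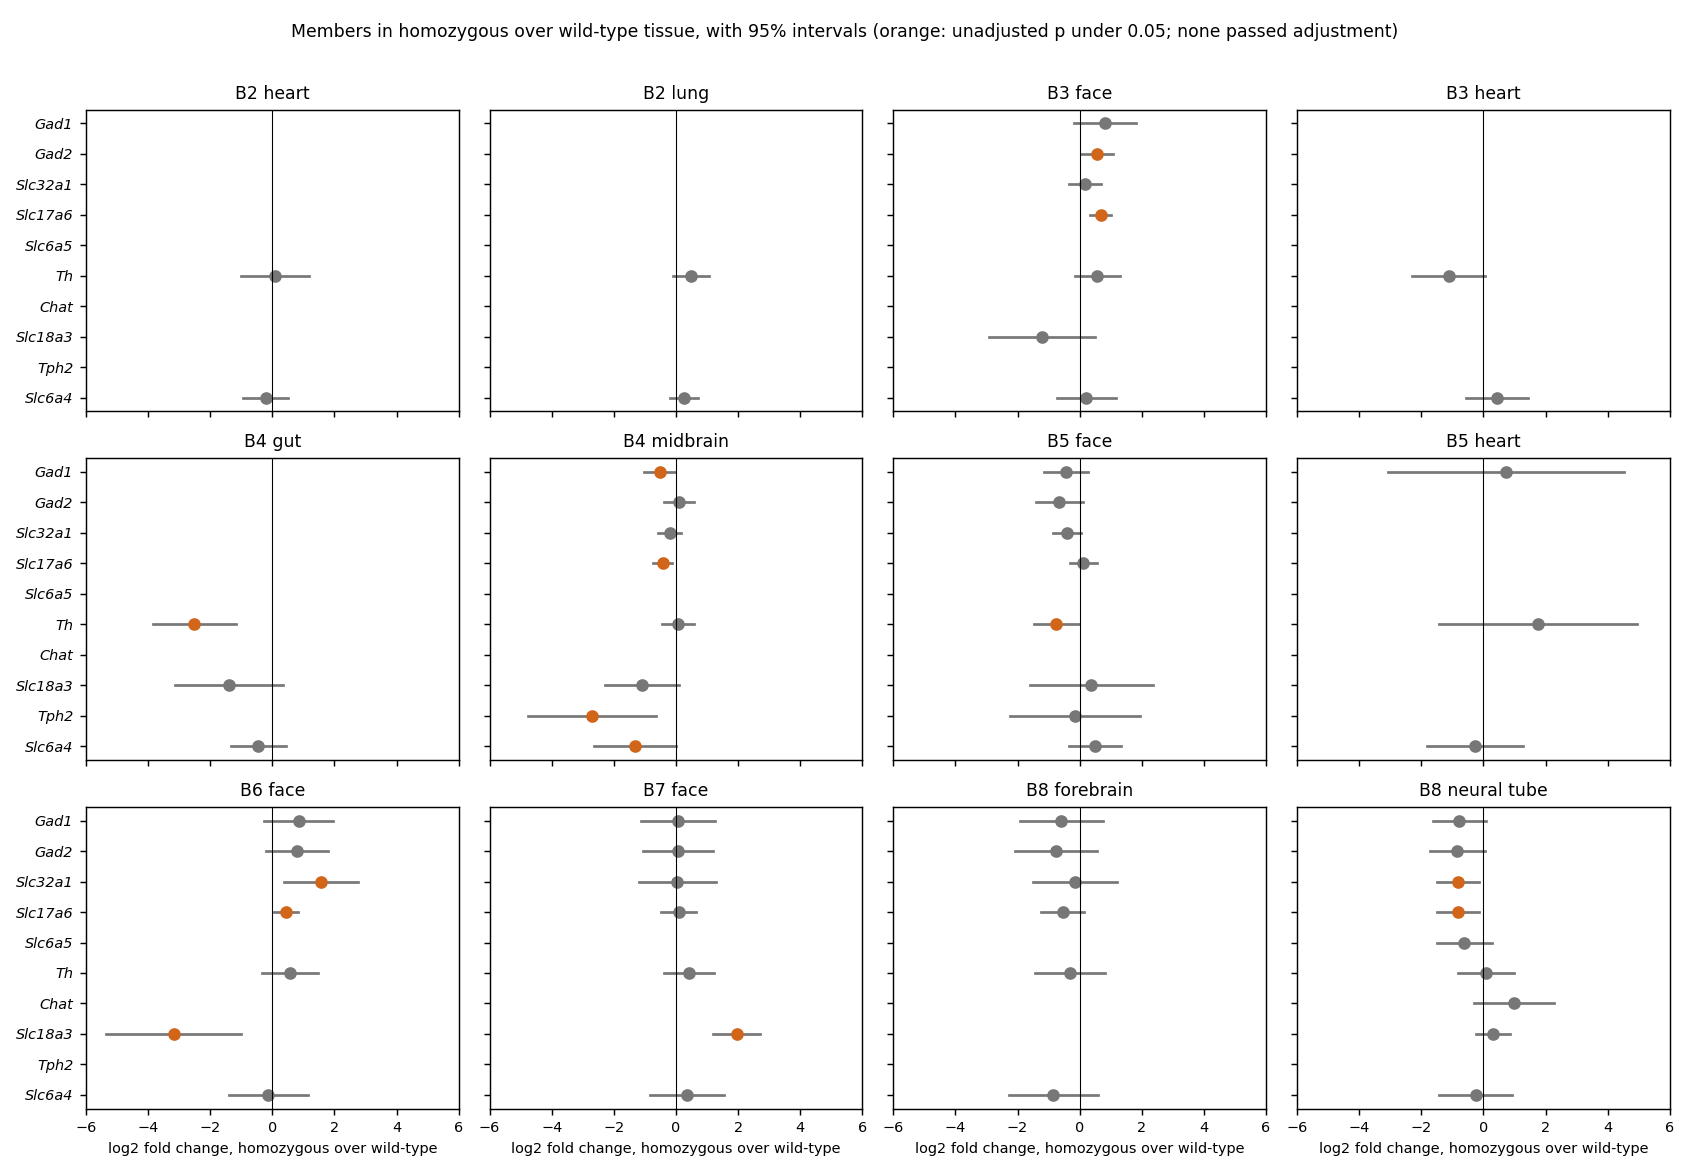
Log2 fold changes of the members tested in each of the 12 comparisons, homozygous over wild-type, with 95% intervals, in orange where the unadjusted p was under 0.05. Most intervals span 0, and the estimates farthest from 0 among the orange points are Slc18a3 in B6 face (-3.17), Tph2 in B4 midbrain (-2.70) and Th in B4 gut (-2.51).

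In B4 gut Th was at 6.77 and 2.43 CPM in the wild-type and at 0.55 and 1.07 CPM in the homozygous libraries, from 145, 65, 13 and 21 counts. The groups did not overlap, and how many of all genes stood apart in this way was not examined. The log2 fold change was -2.51 ± 0.58 (interval -3.85 to -1.17, adjusted p = 0.342). DESeq2 called it, at an adjusted p of 0.00978. Leaving out A44 gave -3.08, with an adjusted p of 0.00388 by edgeR, while leaving out A42 gave -1.62, uncalled (adjusted p = 0.321). Over 10 settings it ran from -3.08 to -1.62 with an adjusted p of up to 0.505, and 3 of the 10 called it. Other genes of sympathetic cells, named because their values were seen, differed in part. Phox2a, a factor needed for noradrenergic fate, was at 5.32 and 2.69 CPM in the wild-type and 1.26 and 0.81 CPM in the homozygous guts. Dbh was at 17.4 and 6.76 CPM against 7.36 and 5.19 CPM, which overlap.

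The list of sympathetic, enteric and neural crest markers summed to 239 and 211 CPM in wild-type and 206 and 217 CPM in homozygous gut, and neuron markers to 268 and 177 against 133 and 123 CPM. Both wild-type B4 embryos and 1 of 2 homozygous embryos read as male by Y-linked genes, in gut as in midbrain. The part of neuron content and of sex in the Th difference was not tested. Slc18a3 in the same guts was at 2.38 and 0.64 CPM (wild-type) and 0.80 and 0.31 CPM (homozygous), with overlap (-1.39 ± 0.75, adjusted p = 0.811).

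In B4 midbrain 4 members had an unadjusted p under 0.05, all lower in homozygous tissue. They were Gad1 (-0.53 ± 0.20), Slc17a6 (-0.42 ± 0.12), Tph2 (-2.70 ± 0.83) and Slc6a4 (-1.32 ± 0.53), each with an adjusted p of 0.668. Fev was at 0.94 and 1.53 CPM in wild-type and 0.50 and 0.05 CPM in homozygous midbrain. A39 was lowest in Tph2, Slc6a4, Fev, Gad1 and Slc17a6. It also held the most forebrain markers and 229 CPM of midbrain markers, against 361 to 496 CPM in the others. Without A37, which leaves A39 as the only homozygous library, Slc17a6 (-0.59) and Tph2 (-5.35) were called, and Slc6a4 was at -2.12. Without A39 no member was called, with Tph2 at -1.84, Slc6a4 at -0.81, Gad1 at -0.35 and Slc17a6 at -0.27. The part of the cut between brain regions was not tested.

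**Figure D4:**
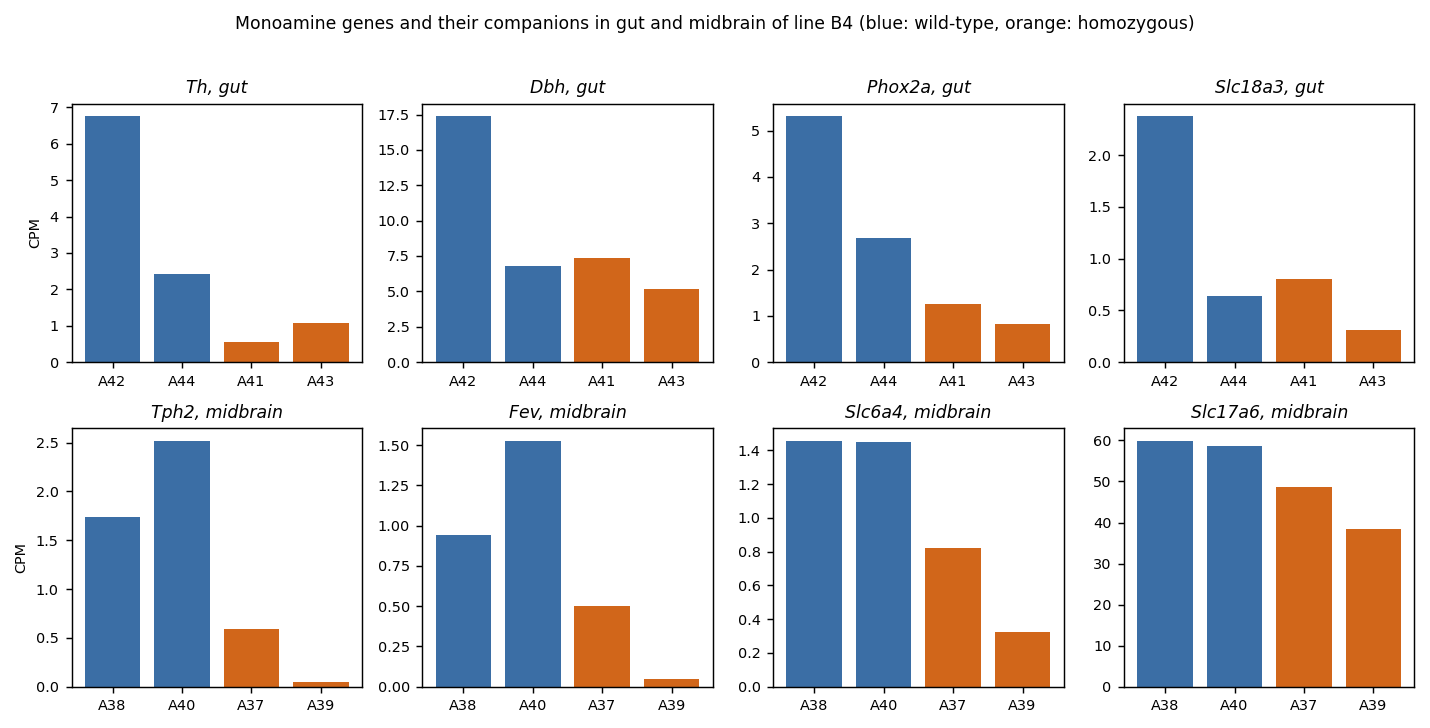
CPM in each gut (top) and midbrain (bottom) library of line B4 for Th, Tph2 and genes of the same cell types, wild-type in blue and homozygous in orange. Th and Phox2a in gut and the 4 genes in midbrain are lower in both homozygous libraries than in both wild-type libraries. Dbh and Slc18a3 in gut overlap. How many of all genes stood apart in this way was not examined.

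In the faces the member that differed most was Slc18a3, and it did so in opposite directions. In B7 it was at 1.15 and 0.82 CPM in wild-type and 3.38 and 4.23 CPM in homozygous faces. The log2 fold change was 1.95 ± 0.32 (interval 1.203 to 2.703, adjusted p = 0.176, and 0.0171 by DESeq2). Without A1 or A3, each of which leaves 1 homozygous face, it was at 2.10 and 1.78. Over 10 settings it ran from 1.72 to 2.21, and 4 of the 10 called it, these fits among them. In B6 it was at 0.67 and 1.66 CPM in wild-type and 0.28 and 0 CPM in homozygous faces, the latter from 6 and 0 counts (-3.17 ± 0.93, adjusted p = 0.42). In B6 it was called without A27 (-3.63) and without A5, which leaves A7 with its 0 counts as the only homozygous face, and it was not called without A7 (-2.08) or A28. Over 10 settings 3 called it, with an adjusted p of up to 1 in the others. Both pairs of groups, of 2 faces each, stood apart without overlap, and how many of all genes did so was not examined.

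In B7 face Tbx20, a factor of cranial motor neurons of the branchial arches, passed the test over all genes and was higher by 3.41 ± 0.29 on the log2 scale (adjusted p = 0.0252). Tbx20 was at 6.45 and 6.44 CPM in homozygous and 0.49 and 0.71 CPM in wild-type faces. The Hox sum was 16 CPM in A3, 1 CPM in A1, 7 CPM in A25 and 2 CPM in A26. Across the 16 faces Slc18a3 was at or below 0.28 CPM in 4, A9, A18, A5 and A7, in which Tbx20 was at 0.84, 1.05, 0.83 and 0.59 CPM. All 4 of these faces are homozygous, but they carry the different deletions of B3, B5 and B6. The cut at 0.28 CPM was taken from these same values. The remaining homozygous faces, A1, A3, A17 and A11, were at 3.38, 4.23, 2.13 and 1.41 CPM of Slc18a3. In B3 and in B5 the homozygous and wild-type faces overlapped. The part of hindbrain tissue in these values was not tested.

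**Figure D5:**
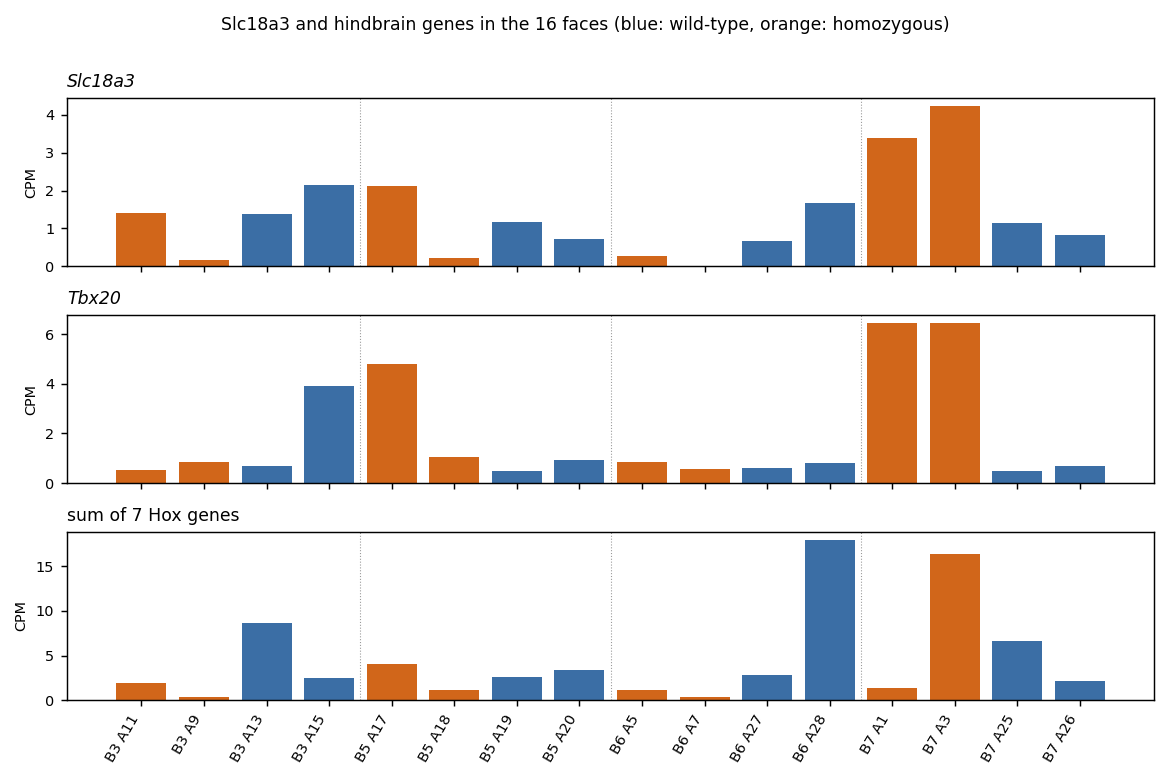
CPM of Slc18a3, Tbx20 and of the sum of 7 Hox genes in the 16 faces, grouped by line, wild-type in blue and homozygous in orange. The B7 homozygous faces A1 and A3 lead in Slc18a3, at 3.38 and 4.23 CPM, and in Tbx20, at 6.45 and 6.44 CPM.

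Slc6a5 was uneven in faces as well. It was at 1.10 CPM (25 counts) in A1 and 0.68 CPM (18 counts) in A17 and at most 0.32 CPM in the other 14, and it was not tested there. In B6 face Slc32a1 (1.58 ± 0.51, adjusted p = 0.474) and Slc17a6 (0.44 ± 0.17, adjusted p = 0.537) had an unadjusted p under 0.05. Slc32a1 was at 3.65 and 0.94 CPM in wild-type and 6.02 and 7.33 CPM in homozygous faces, with A28 the low library. Without the wild-type face A27, which leaves A28 alone, 4 members were called, with Slc32a1 at 2.84. Without A28 none was, with Slc32a1 at 0.84.

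In B3 face Gad2 (0.55 ± 0.22, adjusted p = 0.513) and Slc17a6 (0.68 ± 0.15, adjusted p = 0.503) were not called, with Slc17a6 at 6.196 and 6.42 CPM in wild-type and 10.4 and 9.86 CPM in homozygous faces. In B5 face Th was at 5.74 and 4.41 CPM in wild-type and 2.13 and 3.72 CPM in homozygous faces (-0.76 ± 0.31, adjusted p = 0.999). In B5 heart 3 members were tested. Th was at 0.46 and 0.48 CPM in wild-type hearts and at 2.97 CPM in A21 and 0.24 CPM in A22. Without A22, which leaves A21 as the only homozygous heart, 3 members were called.

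In B8 neural tube, labelled homozygous over labelled wild-type, Slc32a1 (-0.82 ± 0.30) and Slc17a6 (-0.82 ± 0.30) had an unadjusted p under 0.05 and an adjusted p of 0.464. Gad1, Gad2, Slc32a1, Slc17a6 and Slc6a5 were each lower in both homozygous than in both wild-type libraries, and A33 was the lowest of the 4 in all 5. In the other direction A33 had the highest Slc18a3 (15.0 CPM), Chat (1.81 CPM) and Th (10.1 CPM). The share of all genes that stood apart between the 2 genotypes without overlap was not examined. In this comparison 10% of all genes tested had an unadjusted p under 0.05. Neuron markers summed to 2274 CPM in A33 and 2444 to 2880 CPM in the others. Without A35, which leaves A33 alone, 3 members were called, with Slc17a6 at -1.49 and Slc32a1 at -1.18. Without A33 none was, with Slc17a6 at -0.35 and Slc32a1 at -0.53. In B8 forebrain the intervals of all 6 members tested included 0. Without A31, which leaves A29 as the only homozygous library, Slc17a6 was called.

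The difference of the genotype effect between the 2 tissues of a line was called for no member in 35 tests, of which 5 had an unadjusted p under 0.05, against 4.25% of all genes. The share of all genes called was 0.0311% in B3 and 0% in B2, B4, B5 and B8. The members with an unadjusted p under 0.05 were Gad1 in B2 (1.93), Gad1 and Th in B3 (2.91 and 1.70), Slc17a6 in B3 (for which the hearts held too few counts for a fold) and Th in B4 (-2.55, gut minus midbrain, adjusted p = 1). In B2 Gad1 had 17 counts in all in the homozygous and 38 in the wild-type hearts. The B2 lungs held 77 counts of it (homozygous) and 38 (wild-type). Neither B2 tissue compared alone passed Gad1 through the filter on low counts. Gad1 was also low in the B3 hearts, with 1 and 3 counts in homozygous and 4 and 15 in wild-type libraries. It failed the filter on low counts when these hearts were compared alone.

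The genes whose levels were most like a member's were found by Pearson's correlation of log2(CPM + 0.5), as a description. Over 64 libraries the points share tissue, and over the 12 forebrain, midbrain and neural tube libraries they share region and neuron content. Over 64 libraries the closest included Fgf15 and Sp9 to Gad2 (r 0.98 each), Fgf15 and Hes5 to Slc32a1 (r 0.99 each), Scrt1, Scrt2 and Neurog1 to Slc17a6 (r 0.99 each), Stk33, Dmrtb1 and Cdh22 to Gad1 (r 0.94 each) and Glra1, Prdm13 and Skor1 to Slc6a5 (r 0.91 each). They were Dll3, Celf3 and Chga to Th (r 0.89 each), Neurog3, Lamp5 and Glra1 to Slc18a3 (r 0.85, 0.83 and 0.83), Vwc2l, Pax5 and Epha10 to Tph2 (r 0.83, 0.78 and 0.78) and Ptgs1, Gpr146 and Lyl1 to Slc6a4 (r 0.84, 0.83 and 0.83).

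Over the 12 libraries the closest included Pfn2 and Sez6 to Gad1, Nol4, Rorb and Islr2 to Gad2, and Uchl1 and Cnih2 to Slc32a1 (r 0.97 to 0.98). For Slc17a6 they were Magi2, Celf5 and Agap2 (r 0.99 each), for Slc6a5 Stra6l, Scx and Ptn (r 0.99 each) and for Slc18a3 Meox2, Cabp1 and Lhx3 (r 0.99 each). For Tph2 they were Tfap2b, Fev and Cttn (r 0.92 each), for Slc6a4 Sstr4, Epc1 and Rab7 (r 0.90 each) and for Th Tpt1-ps3, Mtrf1 and Agxt2 (r 0.84, 0.82 and 0.81). Among the members themselves, r over the 12 libraries was 0.97 for Gad2 with Slc32a1, 0.93 for Chat with Slc18a3 and 0.83 for Tph2 with Slc6a4, the last being -0.28 over 64 libraries.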

How the data were processed

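RNA-seq libraries of 64 E11.5 mouse tissues were used, and 23 Hi-C samples were not analysed here. Per the labels and methods, the authors mapped paired reads to mm10 with STAR and counted them with RSEM on GENCODE M4. The authors deposited expected counts, TPM and FPKM per gene. Expected counts were rounded to whole numbers, and entries that are no Ensembl gene, which held at most 2.2e-05% of a library's counts, were left out. GENCODE M21 gave symbols for 42462 of 43346 genes and their positions, and RefSeq gave the promoters. R 4.3.3 with edgeR 4.0.16 (filterByExpr, TMM scaling, quasi-likelihood test) was fitted to all genes of a comparison, and Benjamini-Hochberg adjusted p-values were called under 0.05. The scripts were tested on simulated data. Alternatives were DESeq2 1.42.0, RLE scaling, other filters and a joint fit of all libraries. Others were sex or the leading code of the lung names as a covariate, one genotype only, and each library left out.

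Groups followed the genotype and tissue labels. Before averaging, 64 pairs of replicates were compared and 0 were identical. Genotype comparisons had 2 to 6 samples a group. The members and lists were chosen with earlier results of these data known. Named were all 10 members, up to 4 called genes per list and comparison with the largest change, and the 3 genes most correlated with each member whose mean reached 1 CPM in some tissue. Some genes that this rule names are not reported here. Companion genes of B4 gut and midbrain and of the faces were chosen after their values were seen. Intervals and limits from a count of 0 cover counting error only.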

Additional observations from a re-analysis of the deposited data

Results flagged for a closer look

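In groups of 4 to 10 samples, 18 pairs of member and group were examined for a sample far from the others, and 0 were found. Groups of 2 samples, among them those that hold A21, A39, A28, A29 and A33, were too small for this check. In 8 cases the homozygous samples of 1 line or tissue all lay on one side of their wild-type samples and those of another line or tissue all lay on the other. The groups in these cases held 2 samples each, and the sides were read from CPM. How often other genes did so was not examined, so the 8 cases are a description only. The differences between lines were tested in faces and in hearts, over 9 pairs of lines in all, each within 1 tissue. The pairs were chosen after the data were seen and tested with edgeR and Benjamini-Hochberg adjustment over all genes.

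Slc18a3 was lower in homozygous B6 faces and higher in homozygous B7 faces, and the 2 effects differed by -5.12 on the log2 scale (edgeR adjusted p = 0.359). Slc32a1 was lower in B5 and higher in B6 (-1.99, edgeR adjusted p = 0.516), and higher in B3 and lower in B5 (0.58, edgeR adjusted p = 0.62). Gad1 and Th were higher in B3 and lower in B5, by differences of 1.25 (edgeR adjusted p = 0.62) and 1.32 (edgeR adjusted p = 0.608). By TPM the genotypes overlapped in Gad1 in both lines. Gad1 was at 1.63 to 2.07 TPM in homozygous and 1.45 to 1.77 TPM in wild-type B3 faces. In B5 it was at 1.26 to 4.74 TPM (homozygous) and 2.52 to 2.75 TPM (wild-type). Slc32a1 in B3 overlapped by TPM too, at 2.27 to 2.40 TPM (homozygous) and 1.95 to 2.33 TPM (wild-type). Chat was lower in B3 homozygous faces, by -0.14 CPM, and higher in those of B7, at counts too low for a fit, so that the difference was not tested.

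Between tissues of B3, Gad1 and Th were higher in homozygous face and lower in homozygous heart by CPM. By TPM the genotypes overlapped for Gad1 in face, as given above. They also overlapped for Th in heart, at 0.43 to 1.16 TPM (homozygous) and 0.77 to 1.37 TPM (wild-type). For Gad1 the heart values rested on 1 and 3 counts in homozygous and 4 and 15 in wild-type libraries. The effects differed by 2.91 for Gad1 (edgeR adjusted p = 0.531) and by 1.7 for Th (edgeR adjusted p = 0.526). None of the tested differences passed adjustment.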

How the results depend on the processing

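No paired analysis was possible because the labels give the groups compared no shared replicate numbers. The names of the B2 lungs begin with a code, E5403, E5406 or E5420. Each code covers homozygous and wild-type lungs, so it does not mark a single embryo. Entered as a term, this code called 0 members, as did a term for sex. Counts of members called, 0 in each genotype comparison and interaction, moved as follows, and the cause was not tested except where a library left out is named. With no filter on low counts 1 member was called in B3 face, B4 gut, B7 face, B8 neural tube and the B4 interaction, 3 in B6 face and 4 between lung and heart, where a minimum of 10 counts also gave 4. DESeq2 called 1 in B4 gut and 1 in B7 face, and the joint fit of all libraries 3 in B5 heart. With each library left out in turn, the counts ran from 0 to 1 in B4 gut and B8 forebrain, 0 to 2 in B4 midbrain, B7 face and gut against lung, 0 to 3 in B5 heart and B8 neural tube, and 0 to 4 in B6 face. They ran from 5 to 7 for forebrain against neural tube and from 2 to 4 for forebrain against midbrain. Homozygous samples alone gave 0 for forebrain against midbrain and for gut against lung and 1 for face against heart, and wild-type samples alone 1 for gut against lung, each with fewer samples. Where an arm was left with 1 sample, that sample was taken to vary like the others.

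Th turned in sign between gut and lung with homozygous samples alone (-0.39, adjusted p = 0.34). The ratio of mean forebrain to mean midbrain Gad2 was 0.98 in TPM, and that of heart to gut Slc6a4 was 0.77 in TPM and 0.99 in FPKM, all above 1 in CPM. The tissue with the highest level was the same in 17 of 20 checks in TPM and FPKM. Of 54 correlations with other genes, 17 moved by 0.1 or more with Spearman's measure. Most groups held 2 samples, and the counts of Chat, Tph2 and Slc6a5 limit their precision.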
